A study of Mus musculus with 8 samples.

Results

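Microglia are the resident macrophages of the brain, and the 10 genes described here are a panel by which these cells are commonly recognised in brain RNA: Aif1, Csf1r, Cx3cr1, P2ry12, Tmem119, C1qa, C1qb, C1qc, Tyrobp and Trem2. They were measured in the suprachiasmatic nucleus (SCN), the paired hypothalamic nucleus that serves as the central clock of the body. A gene was taken where a probe set of the expression array was annotated to its symbol alone, with the brightest probe set kept. Each of the 10 had 1 such probe set, out of 19938 genes with one. Of these 10 genes 9 lay above the filter on low values (a mean log2 level of 6.82) and were tested among 12452 genes, and Aif1 lay below it and is given as levels.

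The arrays came from C57BL/6J mice of 2 genotypes, Gpr176-/- (the knockout, without the orphan receptor GPR176, which SCN neurons carry and which couples to G proteins) and wild type. Both genotypes were taken at circadian time 18 (CT18, subjective night) and circadian time 6 (CT6, subjective day), which makes 4 groups. All animals had lived under 12 h of light per day for more than 2 weeks and were then kept in constant darkness, so the 4 groups share the lack of light. The SCN was cut out by laser, and tissue of 10 animals was pooled for each array. Each group had 2 arrays, A and B, which are separate biological pools. The labels used here give no age, and no promoter or cell type for the deletion. As a check of the labels, the log2 level of Gpr176 was 8.42 and 8.56 in knockout at CT18 and 8.08 and 8.02 in knockout at CT6, against 9.73 and 9.87 in wild type at CT18 and 9.37 and 9.31 in wild type at CT6. Every knockout array lay below every wild-type array (-1.30 ± 0.0491, limma adjusted p = 3.37e-06), and where the probe set lies relative to the deleted part was not examined. All 12 SCN genes examined, among them Avp, Vip, Six6 and Lhx1, passed the filter, as did 12452 of all 19938 genes. Passing it does not measure how far the tissue was enriched for the SCN.

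Microglia depend on signals from their neighbours. The receptor CSF1R, with its ligands CSF1 and IL-34, keeps them alive, CX3CR1 binds neuronal fractalkine, P2RY12 senses nucleotides, and TREM2 signals through the adaptor DAP12 (the product of Tyrobp). In the brain they are the main source of C1q, the recognition molecule that starts the classical complement cascade and can tag synapses for removal. Microglia are known to hold a circadian clock of their own, and E-boxes (CACGTG) are the sites at which the clock activators CLOCK and BMAL1 bind. Their identity also rests on the transcription factor PU.1, encoded by Spi1, which binds the core GAGGAAGT.

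Promoter sequences were available for 6 of the 10 genes (P2ry12, C1qb, C1qc, Cx3cr1, Aif1 and Trem2) from RefSeq, build GRCm38.p6, each with 250 bases before and 50 after the gene's start. They were searched on both strands for the E-box CACGTG, for the PU.1 core GAGGAAGT and for the shorter AGGAAGT, which every GAGGAAGT contains, so a match on the opposite strand shows as the reverse complement. The shorter motif was added after the sequences had been read. The E-box was found in 1 of the 6 promoters, that of P2ry12, against 7.15% of all 32851 promoters of this length. GAGGAAGT was found in 1 of 6, C1qc, against 3.2% of all, and AGGAAGT in 3 of 6, P2ry12, C1qb and C1qc, against 9.35% of all. The 3 promoters with a match are shown with the matched letters in capitals, beside that of Trem2, the gene with the widest range over the arrays, which had none. All run 5′ to 3′ along the gene. P2ry12 is at chr3:59262936-59263235 on the minus strand, C1qc at chr4:136892865-136893164 and C1qb at chr4:136886151-136886450, both on the minus strand, and Trem2 at chr17:48346151-48346450 on the plus strand. A match of letters describes these windows and is not a measured binding site.
P2ry12: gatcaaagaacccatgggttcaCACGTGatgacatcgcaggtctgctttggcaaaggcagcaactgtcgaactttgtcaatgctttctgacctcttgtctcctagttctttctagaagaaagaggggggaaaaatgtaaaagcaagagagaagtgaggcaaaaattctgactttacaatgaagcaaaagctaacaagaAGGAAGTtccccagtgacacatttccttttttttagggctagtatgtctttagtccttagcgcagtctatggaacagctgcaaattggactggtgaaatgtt
C1qc: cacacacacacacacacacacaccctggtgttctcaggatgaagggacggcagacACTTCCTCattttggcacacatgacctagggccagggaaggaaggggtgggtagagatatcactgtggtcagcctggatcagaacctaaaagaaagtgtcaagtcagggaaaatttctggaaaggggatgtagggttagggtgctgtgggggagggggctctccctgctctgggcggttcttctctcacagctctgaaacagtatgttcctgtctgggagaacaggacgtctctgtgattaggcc
C1qb: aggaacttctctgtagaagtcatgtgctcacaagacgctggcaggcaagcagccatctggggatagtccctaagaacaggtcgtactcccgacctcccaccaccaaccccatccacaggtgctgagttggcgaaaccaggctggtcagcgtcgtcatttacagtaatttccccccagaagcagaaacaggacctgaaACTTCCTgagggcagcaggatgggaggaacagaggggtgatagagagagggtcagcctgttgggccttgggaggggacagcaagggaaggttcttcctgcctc
Trem2: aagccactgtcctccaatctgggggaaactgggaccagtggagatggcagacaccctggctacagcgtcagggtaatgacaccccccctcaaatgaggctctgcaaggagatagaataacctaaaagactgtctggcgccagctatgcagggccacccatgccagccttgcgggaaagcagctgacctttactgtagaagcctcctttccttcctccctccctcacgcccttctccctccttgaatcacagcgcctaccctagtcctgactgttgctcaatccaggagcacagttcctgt

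The microglia genes had about the same range over the arrays as other genes, while their median spread within groups was larger. On the log2 scale, the range of a tested member over the 8 arrays had a median of 0.258, against 0.24 over all genes tested. This range holds both the spread between pools and any difference between groups. The median residual SD of the fit, the spread within groups, was 0.0843 for the members and 0.0628 for all genes tested. Of the 9 tested, 0 passed the test in any of the 7 comparisons of the design (limma, adjusted p under 0.05 over all 12452 genes). The lowest adjusted p was 0.0627, for Trem2 between CT18 and CT6 in the knockout. At CT18, 7 of the 9 genes had both knockout arrays above both wild-type arrays, against 19.2% of all genes in that direction. This count was chosen after seeing the data. With the values as deposited it was 5 of 9, against 15.6% of all genes. The 9 genes were read on the same arrays and are not independent observations. Because the tissue was measured in bulk, a different number of microglia and a different amount of RNA per microglial cell cannot be told apart. The p-values rest on 2 pools per group, and this number of arrays limits the precision.

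**Figure D1:**
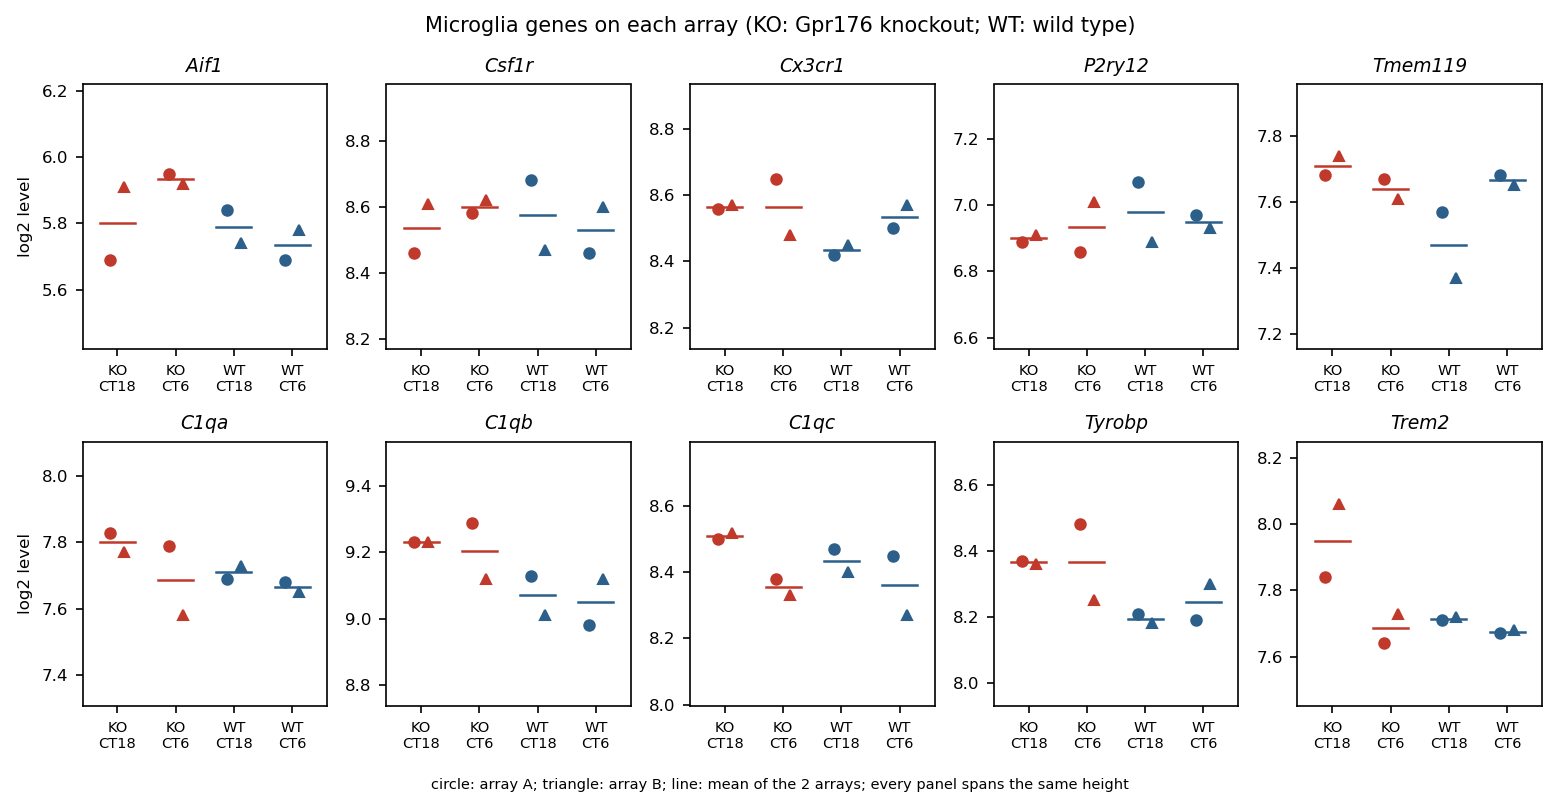
Log2 level of each of the 10 microglia genes (vertical axes, all of the same height) in Gpr176 knockout (KO, red) and wild-type (WT, blue) SCN at CT18 and CT6. Circles are arrays A, triangles arrays B and lines the mean of the 2 arrays. Trem2 reached 7.84 and 8.06 in KO at CT18 and lay between 7.64 and 7.73 on the other arrays. At CT18 both KO arrays lie above both WT arrays for 7 of the 9 tested genes, all but Csf1r and P2ry12. This count was chosen after seeing the data.

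The sensing receptors and surface markers were examined first. Csf1r encodes the survival receptor of microglia (probe set 10456071). Its log2 level was 8.46 and 8.61 in knockout at CT18, 8.58 and 8.62 in knockout at CT6, 8.68 and 8.47 in wild type at CT18 and 8.46 and 8.60 in wild type at CT6 (arrays A and B in this order, here and for the other genes). Every group overlapped every other, and the group means ran only from 8.53 to 8.60. The difference between knockout and wild type over both times was 0.01 ± 0.0598 on the log2 scale (standard error of the fit, adjusted p = 0.942), with a 95% interval of -0.12 to 0.15.

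Cx3cr1, the fractalkine receptor (probe set 10597743), had log2 levels of 8.56 and 8.57 in knockout at CT18, 8.65 and 8.48 in knockout at CT6, 8.42 and 8.45 in wild type at CT18 and 8.50 and 8.57 in wild type at CT6. The wild-type arrays at CT18 were the 2 lowest of the 8, below both wild-type arrays at CT6 and all knockout arrays. The difference between CT18 and CT6 was 0.00 in the knockout (95% interval -0.14 to 0.14) and -0.10 ± 0.0636 in wild type (adjusted p = 0.387), and neither passed the test.

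P2ry12, the nucleotide receptor whose promoter holds the E-box shown above (probe set 10498371), lay close to the filter. Its log2 level was 6.89 and 6.91 in knockout at CT18, 6.86 and 7.01 in knockout at CT6, 7.07 and 6.89 in wild type at CT18 and 6.97 and 6.93 in wild type at CT6. The genotypes overlapped at each time and the times overlapped in each genotype. The difference between CT18 and CT6 had a 95% interval of -0.12 to 0.12 over both genotypes (adjusted p = 0.994).

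Tmem119, a membrane protein used to tell microglia from other macrophages (probe set 10532741), had one of the wider ranges. It stood at 7.68 and 7.74 in knockout at CT18, 7.67 and 7.61 in knockout at CT6, 7.57 and 7.37 in wild type at CT18 and 7.68 and 7.65 in wild type at CT6. Wild type at CT18 was thus the lowest group, with a mean of 7.47 ± 0.141 (SD, n = 2), and did not overlap any other, while the other group means lay between 7.64 and 7.71. The knockout exceeded wild type at CT18 by 0.24 ± 0.0702 on the log2 scale (95% interval 0.09 to 0.40, adjusted p = 0.319). In wild type CT18 lay 0.20 below CT6 (log2 difference -0.20 ± 0.0702, 95% interval -0.35 to -0.04, adjusted p = 0.136). Neither difference passed the test.

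Aif1 encodes IBA1, the calcium-binding protein stained in most histological work on microglia (probe set 10450484). Its log2 level was 5.69 and 5.91 in knockout at CT18, 5.95 and 5.92 in knockout at CT6, 5.84 and 5.74 in wild type at CT18 and 5.69 and 5.78 in wild type at CT6. At CT6 both knockout arrays lay above both wild-type arrays, and at CT18 the genotypes overlapped. When all genes were tested with no filter, the difference at CT6 was 0.20 ± 0.0771 on the log2 scale (adjusted p = 0.997). Its mean of 5.81 lay at percentile 18.1 of all probe sets, and the gene enters no count of tested members.

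The 3 chains of C1q were examined next. In the RefSeq table the genes lie side by side on chromosome 4, in the order C1qb, C1qc and C1qa, with 0 other genes between them. C1qa, the A chain (probe set 10517517), had log2 levels of 7.83 and 7.77 in knockout at CT18, 7.79 and 7.58 in knockout at CT6, 7.69 and 7.73 in wild type at CT18 and 7.68 and 7.65 in wild type at CT6. The genotypes overlapped at CT6, while at CT18 both knockout arrays were above wild type, by 0.09 ± 0.0709 (adjusted p = 0.581). The times overlapped in the knockout, while in wild type both CT18 arrays were above CT6, by 0.04 ± 0.0709 (adjusted p = 0.77).

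C1qb, the B chain (probe set 10517508), stood at 9.23 and 9.23 in knockout at CT18, 9.29 and 9.12 in knockout at CT6, 9.13 and 9.01 in wild type at CT18 and 8.98 and 9.12 in wild type at CT6. Over both times it was higher in the knockout by 0.16 ± 0.0538 on the log2 scale, the largest difference between genotypes over both times among the 9 genes. Its 95% interval was 0.04 to 0.28 and the adjusted p was 0.368, so it did not pass. The difference was similar at CT18 (0.16 ± 0.0761) and at CT6 (0.15 ± 0.0761), and the highest wild-type array (9.13) lay just above the lowest knockout array (9.12).

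C1qc, the C chain (probe set 10517513), had log2 levels of 8.50 and 8.52 in knockout at CT18, 8.38 and 8.33 in knockout at CT6, 8.47 and 8.40 in wild type at CT18 and 8.45 and 8.27 in wild type at CT6. The 2 knockout arrays at CT18 were the highest of the 8. CT18 exceeded CT6 by 0.11 ± 0.0478 over both genotypes (adjusted p = 0.146) and by 0.15 ± 0.0675 in the knockout alone (adjusted p = 0.217). Between times the 3 chains differed by 0.08 ± 0.0502 (C1qa), 0.02 ± 0.0538 (C1qb) and 0.11 ± 0.0478 (C1qc) over both genotypes on the log2 scale. Whether the chains differ from each other was not tested.

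Trem2 and Tyrobp encode the 2 parts of one receptor complex, the lipid-sensing receptor and its signalling adaptor. Trem2 (probe set 10445781) had log2 levels of 7.84 and 8.06 in knockout at CT18, 7.64 and 7.73 in knockout at CT6, 7.71 and 7.72 in wild type at CT18 and 7.67 and 7.68 in wild type at CT6. The 2 knockout arrays at CT18 were the 2 highest and differed from each other by 0.23, more than the other 6 arrays differed among themselves. The group means were 7.95 ± 0.159 in knockout at CT18, 7.68 ± 0.0623 in knockout at CT6, 7.72 ± 0.00866 in wild type at CT18 and 7.68 ± 0.00646 in wild type at CT6 (SD, n = 2 each). Trem2 gave the lowest adjusted p of the members in the comparison of times. CT18 minus CT6 in the knockout was 0.26 ± 0.0739 on the log2 scale, a 1.2-fold difference (95% interval 0.10 to 0.43, adjusted p = 0.0627). In wild type the same difference was 0.04 ± 0.0739 (adjusted p = 0.815), and the difference between these 2 changes was 0.23 ± 0.104 (interaction, 95% interval -0.01 to 0.46, adjusted p = 0.944). Without knockout at CT18 A, the call for CT18 against CT6 in the knockout was made (0.38, adjusted p = 0.0243), as was that over both genotypes (0.21, adjusted p = 0.0183), so the call depended on 1 array.

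Tyrobp (probe set 10551883) had log2 levels of 8.37 and 8.36 in knockout at CT18, 8.48 and 8.25 in knockout at CT6, 8.21 and 8.18 in wild type at CT18 and 8.19 and 8.30 in wild type at CT6. Only knockout at CT6 B lay below the highest wild-type array. The difference between knockout and wild type was 0.15 ± 0.055 over both times (95% interval 0.02 to 0.27, adjusted p = 0.374), while that between CT18 and CT6 was -0.03 ± 0.055 (adjusted p = 0.803). Neither Tyrobp nor Trem2 passed the test, and whether they differ from each other was not tested.

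Read across the panel, the comparison of genotypes asked whether loss of Gpr176 alters the microglial RNA of the SCN. Over both times 8 of the 9 genes were higher in the knockout and P2ry12 was lower, by -0.05. Of the 9 genes 0 were called (limma), against 0.0241% of all genes, and 3 (C1qb, Tyrobp and Trem2) had an unadjusted p under 0.05, against 12.0% of all genes. The median member difference was 0.08, against -0.01 over all genes tested. None of the 9 separated all knockout arrays from all wild-type arrays, against 4.22% of all genes.

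At CT18, 7 of the 9 genes lay higher in the knockout without overlap, against 19.2% of all genes, and 0 of 9 lay lower without overlap, against 26.7% of all genes. Csf1r and P2ry12 overlapped. The count without overlap was chosen after seeing the data, and the 9 genes share the same arrays, so they are not independent observations. The 7 differences ran from 0.08 for C1qc and 0.09 for C1qa through 0.14 for Cx3cr1, 0.16 for C1qb and 0.17 for Tyrobp to 0.23 for Trem2 and 0.24 for Tmem119 on the log2 scale. The median of the 9 was 0.14, against -0.02 over all genes. Of the 9 genes 0 were called, against 0.00803% of all genes (1 gene, Gpr176), and 2 (Tmem119 and Trem2) had an unadjusted p under 0.05, against 12.5% of all. The lowest adjusted p was 0.319. The deposited values without further scaling, and the same values shifted to a common array median, each left 5 of 9 genes without overlap, against 15.6% and 11.7% of all genes, with median member differences of 0.10 and 0.07. Leaving out 1 array at CT18 left 7 or 8 of the 9, against 28.1% to 35.9% of all genes. A gene without overlap stays so when an array is removed, so this count could not fall and is no test of the result.

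At CT6 the median difference was smaller, though 6 of the 9 differences were above 0, against 7 of 9 at CT18. C1qb (0.15 ± 0.0761) and Tyrobp (0.12 ± 0.0778) differed at CT6 nearly as much as at CT18 (0.16 and 0.17). The median member difference was 0.02, against -0.01 over all genes, 0 of 9 genes were called, against 0.00803% of all (again 1 gene, Gpr176), and 0 had an unadjusted p under 0.05, against 4.24% of all. None of the 9 was free of overlap, against 32.8% of all genes. The change of the day-night difference with genotype was tested directly as an interaction. Of the 9 genes 0 were called, as were 0% of all genes, and 1 (Tmem119, 0.27 ± 0.0992, adjusted p = 0.944) had an unadjusted p under 0.05, against 4.86% of all. The higher levels at CT18 are therefore not shown to differ from CT6.

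**Figure D2:**
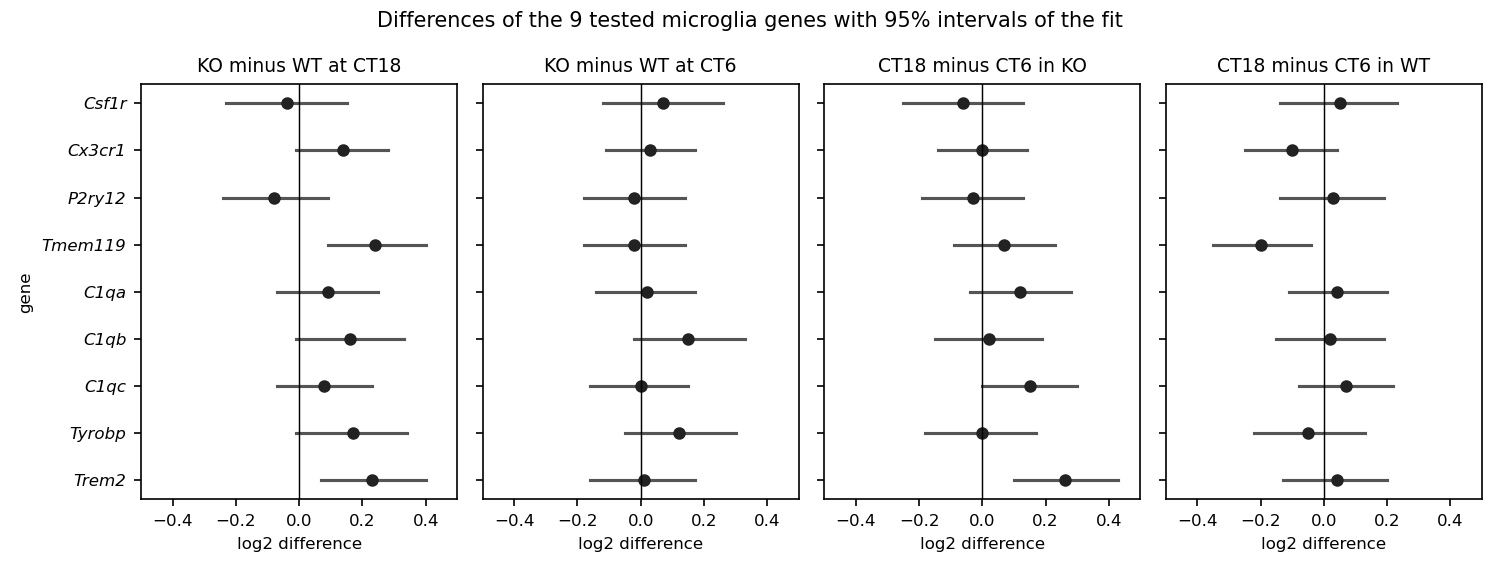
Log2 difference of the 9 tested microglia genes (rows) between KO and WT at CT18 and at CT6, and between CT18 and CT6 in KO and in WT. Points are the estimates of the fit and lines their 95% intervals, which lie between -0.35 and 0.43 in these 4 comparisons. Tmem119 and Trem2 are farthest to the right for KO minus WT at CT18, at 0.24 and 0.23.

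The comparison of times asked whether the panel differs between CT18 and CT6. Only these 2 times were sampled, so a rhythm with like levels at both would show no difference. Over both genotypes 0 of 9 genes were called, against 16.8% of all genes, and 2 (C1qc and Trem2) had an unadjusted p under 0.05, against 30.5% of all. The member differences ran from -0.06 for Tmem119 to 0.15 for Trem2 (0.15 ± 0.0522, adjusted p = 0.0782). No member separated all CT18 arrays from all CT6 arrays, against 21.0% of all genes. The 95% intervals of the 9 genes lay between -0.17 and 0.27 on the log2 scale, and larger changes fell outside them. Within the knockout 0 of 9 were called, against 7.16% of all genes, with 2 (C1qc and Trem2) at an unadjusted p under 0.05, against 22.5%, and 3 (Tmem119, C1qc and Trem2) were higher at CT18 without overlap, against 28.7%. In wild type 0 of 9 were called, against 6.94%, with 1 (Tmem119) at an unadjusted p under 0.05, against 21.8%. Of the 9 genes 2 (C1qa and Trem2) were higher at CT18 without overlap and 2 (Cx3cr1 and Tmem119) lower, against 30.5% and 21.6% of all genes. The results over both genotypes rest on the same arrays as those within each.

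Other genes of microglia and of the pathways around the panel were taken from lists chosen with earlier results of these data known. In a list of 24 further microglia genes, 22 had a probe set and 13 passed the filter. Over both genotypes 4 of these 13 fell at CT18 and 0 rose, against 6.79% and 10.0% of all genes, and the list median was -0.06, against 0.01. Olfml3, a secreted olfactomedin-like protein enriched in microglia, changed most. Its log2 level was 9.05 and 9.14 in knockout at CT18 and 9.62 and 9.54 in knockout at CT6, against wild-type levels of 9.20 and 9.04 at CT18 and 9.57 and 9.62 at CT6. All 4 CT18 arrays lay below all 4 CT6 arrays. The fall was -0.48 ± 0.0485 over both genotypes (adjusted p = 0.000168), -0.49 in the knockout (adjusted p = 0.00275) and -0.47 in wild type (adjusted p = 0.00327).

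Cd33, a sialic acid-binding lectin that restrains myeloid cells, also fell at CT18, by -0.25 ± 0.0481 over both genotypes (adjusted p = 0.00759). It stood at 7.71 and 7.70 in knockout at CT18 and 7.96 and 7.87 in knockout at CT6, against wild-type levels of 7.81 and 7.71 at CT18 and 7.96 and 8.12 at CT6, with no overlap between times. Lpcat2, an acyltransferase of phospholipid remodelling (-0.18 ± 0.0416, adjusted p = 0.0171), and Selplg, the P-selectin ligand (-0.13 ± 0.0375, adjusted p = 0.0453), were called as well. Lpcat2 was no longer called with median centring, or when either wild-type array B was left out (highest adjusted p 0.0643). The call for Selplg was lost on leaving out any 1 array and in 4 other settings (highest adjusted p 0.169). Between genotypes 0 of the 13 genes were called, over both times or at either time. A fall at CT18 over both genotypes was not limited to the microglia list. Endothelial and mural genes had 3 of 9 lower and 0 higher (list median -0.10), and ependymal genes 2 of 5 and 0 (-0.11). Oligodendrocyte genes had 1 of 9 lower and 0 higher (-0.08). Astrocyte genes had 1 of 10 lower and 2 higher, and oligodendrocyte precursor genes 0 of 5 lower and 2 higher. In the neuron and leptomeningeal lists 0 genes were called.

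**Figure D3:**
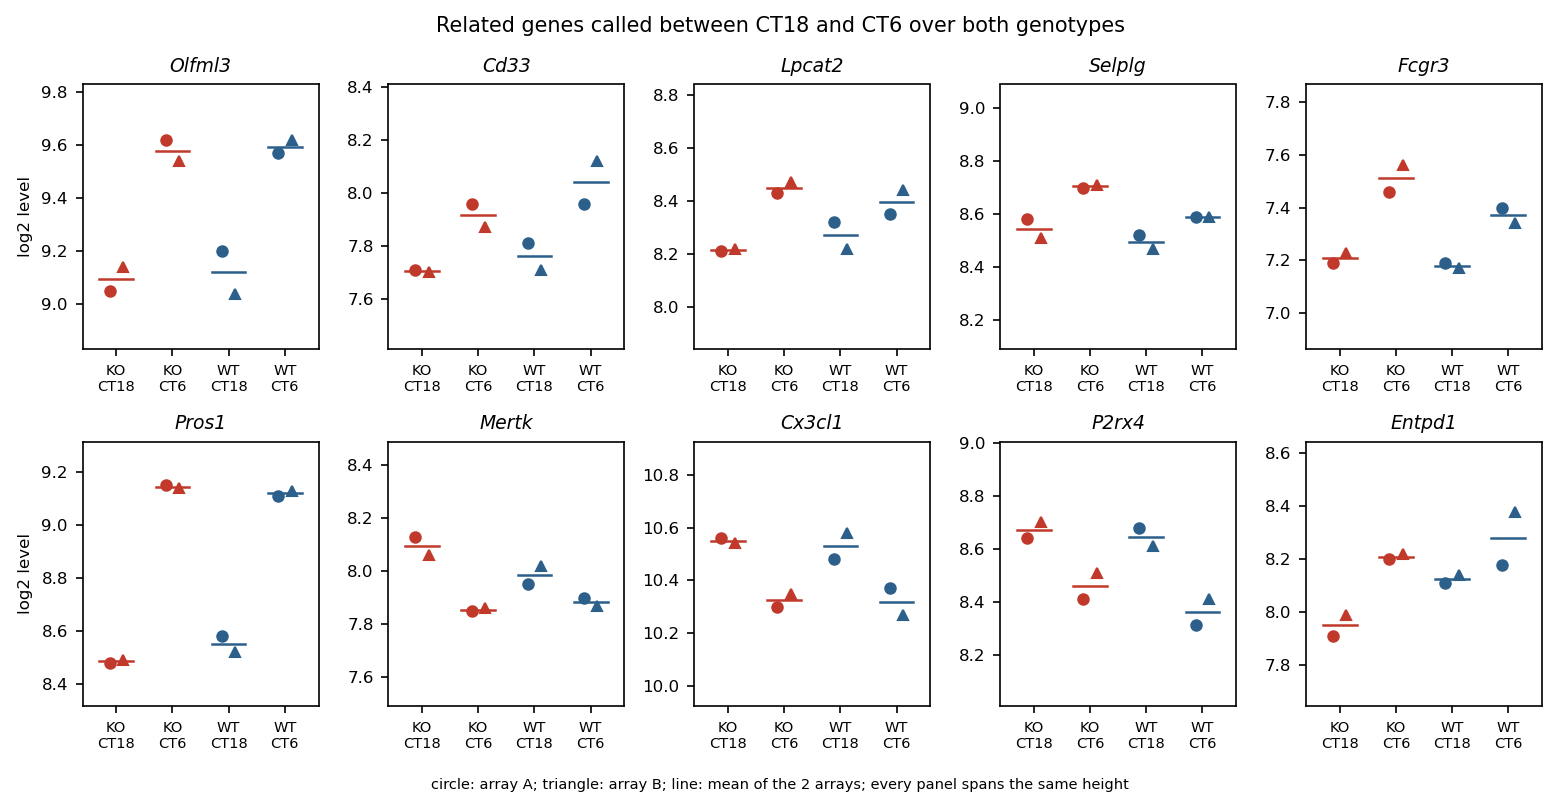
Log2 level (vertical axes, all of the same height) of 10 related genes that were called between CT18 and CT6 over both genotypes, in KO (red) and WT (blue). Circles are arrays A, triangles arrays B and lines the mean of 2. Olfml3 and Pros1 are lower at CT18 than at CT6 in both genotypes, at -0.48 and -0.62 on the log2 scale, and Cx3cl1 and P2rx4 are higher, at 0.22 and 0.25.

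Among ligands and partners of the panel, Cx3cl1, the fractalkine that Cx3cr1 binds and a product mainly of neurons, was higher at CT18. Its log2 level was 10.56 and 10.54 in knockout at CT18 and 10.30 and 10.35 in knockout at CT6, against wild-type levels of 10.48 and 10.58 at CT18 and 10.37 and 10.27 at CT6. CT18 exceeded CT6 without overlap, by 0.22 ± 0.0421 over both genotypes (adjusted p = 0.00719), while the receptor differed by -0.05 ± 0.045 (adjusted p = 0.496). Whether ligand and receptor differ from each other in this change was not tested. Csf1 (0.02 ± 0.057, adjusted p = 0.853) and Il34 (-0.05 ± 0.0556, adjusted p = 0.61), the ligands of CSF1R, were not called between times, and neither was Apoe, a lipid carrier that TREM2 binds (0.06 ± 0.0443, adjusted p = 0.377). Syk, the kinase downstream of DAP12 (6.29 to 6.50 over the 8 arrays), and Spi1 (6.17 to 6.64) lay under the filter.

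Of 8 tested fractalkine and purinergic genes 3 rose and 1 fell at CT18 over both genotypes, against 10.0% and 6.79% of all genes (list median 0.06, against 0.01). Besides Cx3cl1, P2rx4, an ATP-gated channel (0.25 ± 0.044, adjusted p = 0.0046), and Nt5e, the ectonucleotidase that makes adenosine (0.18 ± 0.0376, adjusted p = 0.0106), rose. Entpd1, which degrades extracellular ATP and ADP, fell (-0.21 ± 0.0502, adjusted p = 0.0209). Leaving out any of 4 arrays (in each genotype, B of CT6 and A of CT18) ended that call (highest adjusted p 0.0695). In the complement list 2 of 13 tested genes rose and 1 fell, against 10.0% and 6.79% of all genes, and the list median of 0.01 equalled that of all genes. These were Sez6l (0.27 ± 0.0486, adjusted p = 0.00512) and Susd4 (0.13 ± 0.0368, adjusted p = 0.0448), which have complement-regulatory domains, and Cd46, a complement regulator (-0.37 ± 0.0648, adjusted p = 0.0042). Susd4 lost its call on leaving out any 1 array and in 4 other settings (highest adjusted p 0.132).

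Among 16 tested genes of phagocytosis and lysosomes 2 rose and 2 fell at CT18 over both genotypes, against 10.0% and 6.79% of all genes (list median -0.04, against 0.01). Pros1, protein S, a bridging ligand between dying cells and the receptor MERTK, fell most. It stood at 8.48 and 8.49 in knockout at CT18 and 9.15 and 9.14 in knockout at CT6, against wild-type levels of 8.58 and 8.52 at CT18 and 9.11 and 9.13 at CT6. The groups of the 2 times were far apart relative to the pools of each group (-0.62 ± 0.0361, adjusted p = 4.5e-06). Mertk itself rose by 0.17 ± 0.0387 (adjusted p = 0.0141), a call that ended when either wild-type array B was left out (highest adjusted p 0.054). Fcgr3, an Fc receptor for IgG, fell (-0.24 ± 0.0401, adjusted p = 0.00305), and Hexa, a lysosomal hexosaminidase subunit, rose (0.20 ± 0.0416, adjusted p = 0.00943). Pros1, Mertk and Hexa are also transcribed by other brain cells.

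Activation lists were examined next. Of 12 tested genes of the disease-associated microglial state 0 rose and 2 fell at CT18 over both genotypes, against 10.0% and 6.79% of all genes. These were Lgals3, a galectin (-0.16 ± 0.0395, adjusted p = 0.0213), and Cd9, a tetraspanin (-0.21 ± 0.0544, adjusted p = 0.0265). Lgals3 was no longer called with median centring or when either wild-type array A, A of the knockout CT6 pair or B of its CT18 pair was left out (highest adjusted p 0.0718). Cd9 was no longer called with the values as deposited or without any 1 of 5 arrays, both of wild type CT6, B of wild type CT18, A of knockout CT6 and A of knockout CT18 (highest adjusted p 0.0898). Of 21 inflammatory genes 17 lay under the filter, and 0 of the 4 tested were called. In the same comparison, in which 16.8% of all genes were called, the myeloid transcription factors had 1 of 5 tested called, Mef2c, which neurons also transcribe (0.15 ± 0.0366, adjusted p = 0.021). The CSF1R list had 1 of 9, the adaptor Grb2 (0.15 ± 0.0403, adjusted p = 0.0353), and the TREM2 and DAP12 list 0 of 5. Mef2c lost its call on leaving out any 1 of 5 arrays, A of wild type CT6, both of wild type CT18, B of knockout CT6 and A of knockout CT18 (highest adjusted p 0.0668). Grb2 lost it with median centring, with no filter and on leaving out any 1 array other than A of wild type CT6 and B of knockout CT18 (highest adjusted p 0.115). In none of these lists was a gene called between genotypes.

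Markers of other cells were read on the same arrays as mean log2 levels over each list. Border macrophages share several genes of the panel, and 1 of 12 of their markers passed the filter, with list means of 5.92 to 5.98 in the knockout and 5.95 to 6.00 in wild type. Blood leukocyte markers had 0 of 10 genes with a probe set above the filter (5.69 to 5.72 in the knockout and 5.68 to 5.73 in wild type). The 10 microglia genes together lay at 7.90 and 7.97 in knockout at CT18, 7.93 and 7.86 in knockout at CT6, 7.88 and 7.79 in wild type at CT18 and 7.83 and 7.86 in wild type at CT6. The 22 further microglia genes with a probe set did not follow them, at 7.45 and 7.50 in knockout at CT18 and 7.54 and 7.45 in wild type at CT18.

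**Figure D4:**
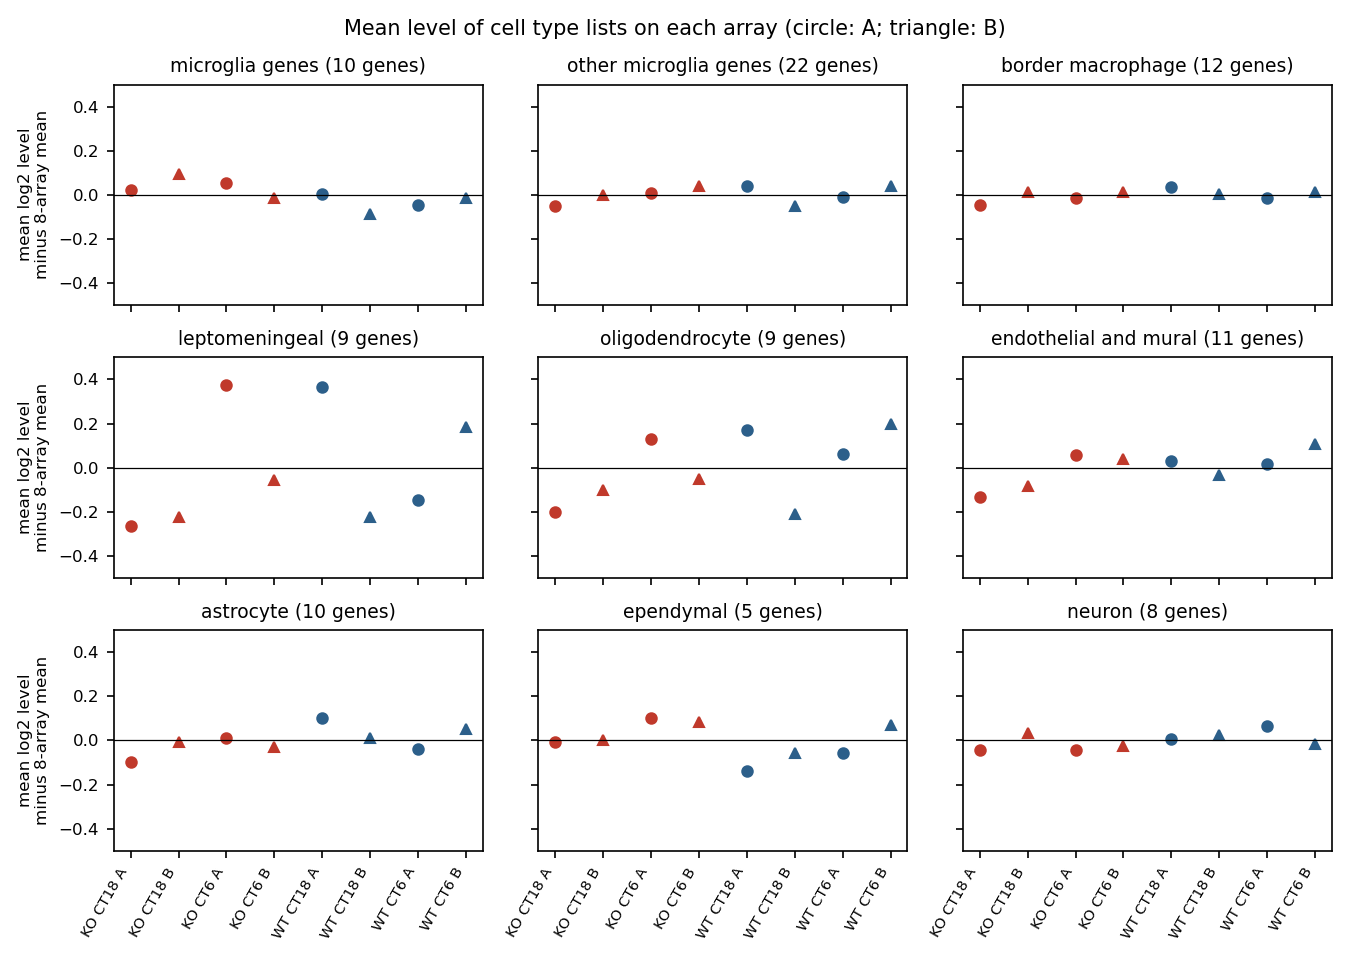
Mean log2 level of 9 lists on each array, minus the mean over the 8 arrays (vertical axis, shared), in KO (red) and WT (blue); circles are arrays A and triangles arrays B. Leptomeningeal genes span 0.64 and oligodendrocyte genes 0.40, while the 10 microglia genes span 0.18.

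Some pools differed in the levels of markers of other cells. Whether they held different amounts of these cells was not tested. Leptomeningeal markers (6 of 9 above the filter) had list means of 7.51 and 7.55 in knockout at CT18, 8.15 and 7.72 in knockout at CT6, 8.14 and 7.55 in wild type at CT18 and 7.63 and 7.96 in wild type at CT6. Knockout at CT6 A and wild type at CT18 A were the highest, followed by wild type at CT6 B. At CT18, where the panel was higher in the knockout, lists of endothelial and mural cells (8.08 and 8.13 in the knockout, 8.24 and 8.18 in wild type) and astrocytes (10.31 and 10.40 in the knockout, 10.51 and 10.42 in wild type) were lower in both knockout arrays, as were oligodendrocyte precursor genes (8.55 and 8.62 in the knockout, 8.72 and 8.63 in wild type). Leptomeningeal genes were lower too (mean 7.53 in the knockout and 7.84 in wild type). So were the TREM2 and DAP12 list (7.47 against 7.50) and the fractalkine and purinergic list (8.12 against 8.16). Ependymal genes were higher without overlap (mean 9.05 in the knockout and 8.96 in wild type). SCN genes (10.28 against 10.25) and blood leukocyte markers (5.70 against 5.68) were higher as well. Oligodendrocyte genes overlapped (9.45 and 9.55 in the knockout, 9.82 and 9.44 in wild type). The part of these differences in the microglia result was not tested. Without wild type at CT18 A, 8 of 9 members were higher in both knockout arrays than in the remaining wild-type array, against 29.9% of all genes. That remaining array had the lowest mean of the 10 microglia genes, 7.79. Removing an array cannot lower this count, so it does not test the part of these differences.

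Between the 2 pools of one group the members did not all move in the same direction. Array A exceeded array B for 2 of 9 genes in knockout at CT18, 6 of 9 in knockout at CT6, 6 of 9 in wild type at CT18 and 4 of 9 in wild type at CT6. Over all genes tested these shares were 34.9%, 34.7%, 55.1% and 46.3% in the same order of groups. In knockout at CT6 the 6 genes higher in A were the C1q chains, Tyrobp, Cx3cr1 and Tmem119, by 0.05 for C1qc to 0.23 for Tyrobp. The 3 lower in A reached -0.15, for P2ry12. In wild type at CT18 the genes higher in A reached 0.21 for Csf1r, 0.20 for Tmem119 and 0.18 for P2ry12. The 3 lower there reached only -0.04, for C1qa. Genes whose levels most resembled the mean of the 9 members over the 8 arrays were Ogg1 (Pearson r = 0.91), Cmas and Tprgl (both r = 0.90), and Cdc42se1 and Cyba (both r = 0.89). They are the closest of all named genes tested and are given as a description, since such values arise by selection among many genes over 8 arrays.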

How the data were processed

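RNA of 8 pools was labelled with biotin and hybridised to whole-transcript arrays, per the labels' protocols. The deposited values are on a log2 scale, for 28853 probe sets. The labels and file do not state how scanner signals were made into them. Lower quartiles of the arrays spread over 0.139, so the columns were quantile normalized (limma 3.58.1, R 4.3.3). Of the probe sets, 21789 carried exactly 1 symbol in the platform annotation, 1621 several, and 5443 are unnamed here. The brightest per gene was kept, and genes under the 40th percentile of all probe sets (6.82) were left out. A mean per group was fitted to all 8 arrays (4 residual degrees of freedom) with moderated variances, and p-values were adjusted by Benjamini-Hochberg over 12452 genes. Values after ± are standard errors unless an SD is named. The fit was tested on simulated data. Alternatives were other scalings, filters, a variance trend, a replicate block and each array left out. Genes named besides the members were the called genes of each list with the smallest p (at most 4), fixed ligands and partners (of which C3 is not reported here), and the 5 most alike. From the lists of other cell types, values are given for the lists only. Members and lists were chosen with earlier results of these data known.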

Additional observations from a re-analysis of the deposited data

How the results depend on the processing

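Over 15 alternative settings 917 differences of the 9 members were recomputed, and 853 stayed within 1 standard error. A change of sign was seen in 44, all of differences of at most 0.08 on the log2 scale that were not called. The count of members called stayed at 0 in each setting except without knockout at CT18 A, where Trem2 was called between times, so counts over the arrays left out ran from 0 to 1 in the knockout and from 0 to 1 over both genotypes. The count of genes without overlap at CT18, an alternative chosen after seeing the data, ran from 7 to 8 over the CT18 arrays left out. It could not fall when an array was removed, so this range is no test of it. The filter at the 60th percentile leaves out 4 of the 9 members, so fewer were recomputed there.

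Counts over all genes moved more. For knockout against wild type over both times the 3 calls became 6 with values as deposited, 5 with median centring, 1 with no filter, 6 with the stricter filter and 7 with a variance trend. At CT6 the 1 call became 2 as deposited, 2 with median centring and 2 with the replicate block, and at CT18 3 with median centring and 3 with the stricter filter. Between times in the knockout, 590 genes were called with median centring, against 891 in the fit reported. With 1 array left out, genes called between times ranged from 382 to 795 in the knockout, 311 to 827 in wild type and 1385 to 1803 over both, and those called between genotypes over both times from 1 to 4. The lone array of a group is then assumed to vary like the others. The cause of these shifts was not tested, beyond the smaller number of arrays.

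The differences of A from B correlated between groups at -0.22 to 0.26 over genes, with no common sign. Whether pools of the same letter were prepared together cannot be told from these values. The replicate block called 0 members in all 7 comparisons and 1946 genes between times over both genotypes.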
